A study of Rattus norvegicus with 9 samples.

Results

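miR-143 and miR-145 are encoded as neighbours and are known as the main miRNA pair of vascular smooth muscle. They were followed, as mir-143 and mir-145 of the deposited table, through 9 small RNA libraries of rat left ventricle. All rat miRBase entries of either name were taken from the annotated sequences, whatever the kind of match, and the minor strand (*) was kept apart from the mature strand. This gave 1286 of 31220 unique rat sequences, 2 of 292 rat miRNA names and 893779 of 6248238 rat reads (14.3%). Of these, mir-143 held 984 sequences and 877882 reads, and mir-145 held 302 sequences and 15897 reads. The tissue was the left ventricular free wall of 3 male Sprague-Dawley rats aged 8 months, with no treatment given in the labels, numbered hearts 6, 7 and 8. Each wall was cut into epicardium, mid-myocardium and endocardium about 1 mm below either surface, so each layer is a mixed tissue of muscle, vessels and stroma and not a pure cell type. There was 1 library for each layer of each heart (n = 3 per layer). In such bulk samples, fewer cells of a type and less RNA per cell cannot be told apart.

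A miRNA gene is transcribed as a long RNA that is cut to a hairpin by Drosha, and Dicer then releases a duplex from which one strand is usually kept. Bases 2 to 8 of the kept strand, the seed, decide most of its pairing with messenger RNAs. isomiRs are reads of one miRNA that differ at either end, either because the cut lay elsewhere on the hairpin (templated) or because an enzyme added nts that the hairpin does not encode (untemplated tails). In vessels, miR-143 and miR-145 are characteristic of contractile smooth muscle cells and of pericytes.

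In the RefSeq annotation of rat assembly GRCr8 both hairpins lie on the minus strand of chromosome 18. Mir143 spans 57371349 to 57371453 (105 nts) and Mir145 spans 57369983 to 57370070 (88 nts), with 1278 nts between them. Both lie within the span of the long non-coding RNA gene Carmn (57368191 to 57389112), the host transcript of the cluster. The RefSeq hairpins are shown to let the isomiRs be placed, with the 2 annotated arms in capitals:
Mir143 hairpin, chr18:57371349-57371453, minus strand: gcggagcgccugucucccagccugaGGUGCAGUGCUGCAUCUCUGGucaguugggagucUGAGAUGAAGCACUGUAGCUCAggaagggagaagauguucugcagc
Mir145 hairpin, chr18:57369983-57370070, minus strand: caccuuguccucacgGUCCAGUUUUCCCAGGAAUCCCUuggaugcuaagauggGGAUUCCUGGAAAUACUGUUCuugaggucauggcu

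The mature strand of miR-143 comes from the 3′ arm and that of miR-145 from the 5′ arm. The 4 mature entries are shown with the seed in capitals, because the seed is what the most frequent miR-145* read changes:
miR-143 (rno-miR-143-3p): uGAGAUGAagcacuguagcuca
miR-143* (rno-miR-143-5p): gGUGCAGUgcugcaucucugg
miR-145 (rno-miR-145-5p): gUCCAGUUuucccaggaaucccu
miR-145* (rno-miR-145-3p): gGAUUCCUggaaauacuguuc

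None of the 4 seeds was shared with any other of 724 rat mature entries, so the 4 arms form 4 seed groups of 1.

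The sequences that the reads themselves showed most often are given below as the deposited table spells them, in DNA letters, with untemplated nts in capitals. They carry the 3′ tail of miR-143, the end of miR-145 and the shifted start of miR-145*:
miR-143 with 1 U added after nt 21: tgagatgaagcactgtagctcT
miR-143, 21 nts: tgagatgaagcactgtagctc
miR-143, 20 nts: tgagatgaagcactgtagct
miR-143, mature entry: tgagatgaagcactgtagctca
miR-145, mature entry: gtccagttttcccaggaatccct
miR-145, 24 nts: gtccagttttcccaggaatccctt
miR-145 with 1 A after nt 22: gtccagttttcccaggaatcccA
miR-145*, starting 2 nts inside the entry: attcctggaaatactgttctt
miR-145* with 1 C added: attcctggaaatactgttctC

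Levels are given as RPMM, reads scaled to 1000000 annotated reads of each library, which held 283991 to 1428025. A count of 0 allows up to 3 reads, equal to 2.10 RPMM in the deepest library and 10.6 RPMM in the shallowest, the mid-myocardium of heart 6. The intervals of shares and these floors cover counting error only, because reads copied by PCR were counted with no tag for the starting molecule. The paper raises the possibility that cloning, adapter ligation and PCR skew the read numbers of different miRNAs. Levels, ranks and ratios across arms are therefore those of reads and not of molecules in the tissue.

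miR-143 was one of the most abundant miRNAs in every layer, at 111113 ± 23253 RPMM (SD, n = 9), and ranked second of 437 rat arms by mean level, with ranks of 1 to 3 in single libraries. The ranking holds rat entries only. It leaves out miR-486, which the paper found under a human entry and above miR-143 in mid-myocardium. In hearts 6, 7 and 8 the miR-143 level was 102023, 95319 and 153275 RPMM in the epicardium. It was 90401, 123351 and 90078 RPMM in mid-myocardium, and 107761, 141946 and 95863 RPMM in the endocardium. The ranges of the layers overlapped, and the highest value came from a different heart in the epicardium (heart 8) than in the other layers (heart 7). The layer means were 116872 ± 31703, 101277 ± 19118 and 115190 ± 23923 RPMM (SD, n = 3). The endocardium minus epicardium difference was -0.0079 ± 0.28 (log2, SE), with a 95% interval from -0.63 to 0.61 (limma, adjusted p = 0.998).

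miR-145 was far less abundant, at 1726 ± 612 RPMM (SD, n = 9), rank 47 by mean and 31 to 58 in single libraries. In hearts 6, 7 and 8 it measured 1888, 1586 and 966 RPMM in the epicardium. It measured 1884, 1381 and 1265 RPMM in mid-myocardium, and 3125, 1894 and 1547 RPMM in the endocardium. Within each heart the endocardium was the highest of the 3 layers, and within each layer heart 6 was the highest and heart 8 the lowest. The endocardial level was 1.65, 1.19 and 1.60 times the epicardial level in hearts 6, 7 and 8. The difference of endocardium from epicardium was 0.55 ± 0.35 (log2, SE; 95% interval -0.23 to 1.34) and did not pass the test (limma, adjusted p = 0.989). With heart as a replicate block the same difference had an SE of 0.24 and an interval from 0.011 to 1.10 (limma, unadjusted p = 0.0464, adjusted p = 0.616), and ranked 17 of 228 arms by p.

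miR-145*, the passenger strand of miR-145, was detected at 386 ± 206 RPMM (SD, n = 9), rank 78. In hearts 6, 7 and 8 it measured 193, 590 and 481 RPMM in the epicardium. It measured 158, 714 and 315 RPMM in mid-myocardium and 143, 331 and 547 RPMM in the endocardium. Heart 6 had the lowest level in every layer, the reverse of its place for miR-145, and its highest library lay below the lowest library of the other hearts. The layers overlapped, with an endocardium minus epicardium difference of -0.36 ± 0.66 (log2, SE; limma, adjusted p = 0.989).

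miR-143*, the passenger strand of miR-143, was close to the limit of detection with 127 reads over the 9 libraries. It measured 13.8, 13.0 and 9.66 RPMM in the epicardium of hearts 6, 7 and 8. The values were 17.6, 19.9 and 30.4 RPMM in mid-myocardium and 8.43, 9.80 and 30.3 RPMM in the endocardium. Mid-myocardium exceeded epicardium in 3 of 3 hearts and the 2 ranges did not overlap, but single libraries rested on 5 to 32 reads. The mid-myocardium minus epicardium difference was 0.82 ± 0.44 (log2, SE; limma, adjusted p = 0.854).

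**Figure D1:**
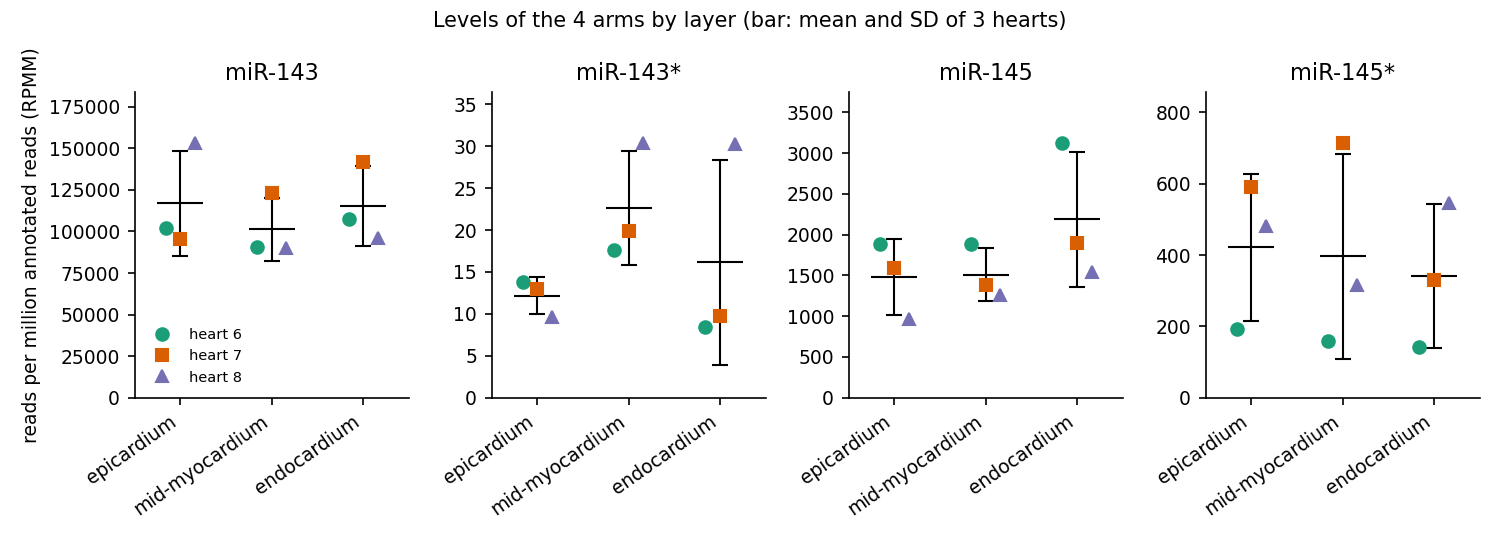
Level of each arm in RPMM (linear axis from 0) for the 3 layers, with 1 symbol per heart and the mean and SD of 3 hearts as bars. The miR-145* symbols of heart 6 sit between 143 and 193 RPMM, below all other libraries, while the miR-145 symbols of heart 6 are the highest of each layer.

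None of the 4 arms passed the limma test in any of the 3 layer contrasts. Nor did any other arm, since 0 of 228 arms tested (0%) passed in each contrast, and 13, 13 and 8 arms had an unadjusted p under 0.05 for endocardium against epicardium, mid-myocardium against epicardium and mid-myocardium against endocardium. edgeR's quasi-likelihood test and DESeq2 on the recovered reads also called 0, with 11 and 10 arms under an unadjusted 0.05 for endocardium against epicardium. The median difference over all 228 arms in that contrast was 0.021 (log2). The intervals above are the sizes of difference these libraries leave possible, and a failed test does not show equal levels.

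**Figure D2:**
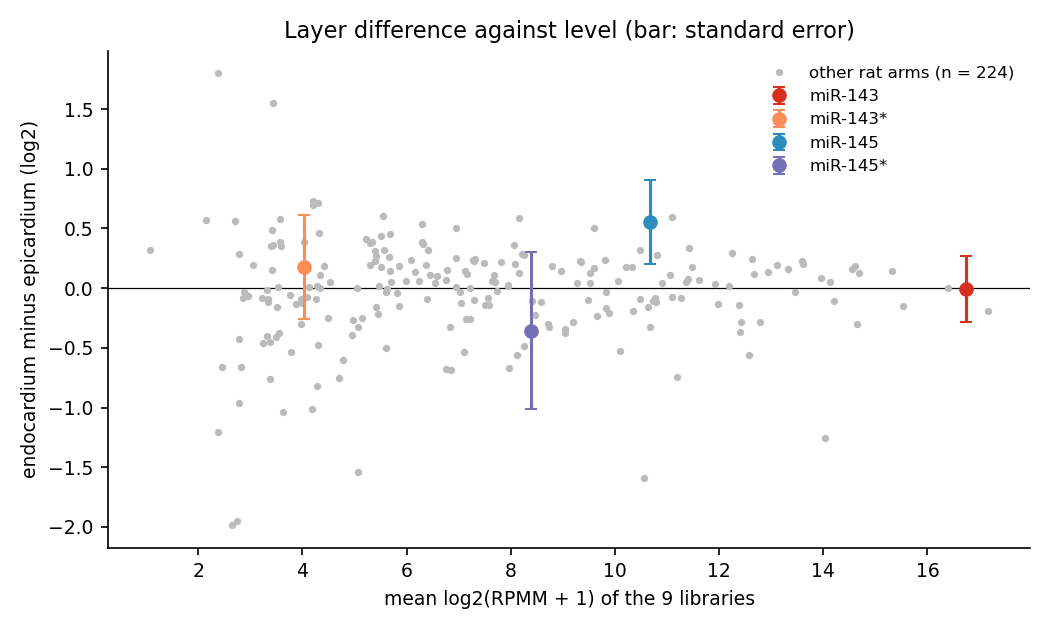
Endocardium minus epicardium difference (log2) against mean log2(RPMM + 1) for the 228 arms tested, with standard errors for the 4 arms of the cluster. miR-143 lies at -0.0079 among the most abundant arms, miR-145 at 0.55 and miR-145* at -0.36, against a median of 0.021 over all arms.

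The hairpins are neighbours, but the ratio of their 2 mature strands varied between libraries. The reads of miR-143 per read of miR-145 were 54.0, 60.1 and 159 in the epicardium of hearts 6, 7 and 8. They were 48.0, 89.3 and 71.2 in mid-myocardium and 34.5, 74.9 and 62.0 in the endocardium. Heart 6 had the lowest ratio in each layer, and the epicardium of heart 8 stood highest, with the highest miR-143 and the lowest miR-145 of all libraries. No difference between layers was resolved (exact two-sided permutation test, 3 against 3, where the smallest p possible is 0.1, p = 0.6 for endocardium against epicardium, 0.8 for mid-myocardium against epicardium and 0.5 for mid-myocardium against endocardium). Within hearts the ratio was higher in mid-myocardium than in endocardium in 3 of 3 hearts (exact two-sided permutation test within hearts, p = 0.25, the smallest that 3 pairs allow). Pearson's r between miR-143 and miR-145 was -0.28 on log2(RPMM + 1) over the 9 libraries, which share hearts and depth. Among the 121 other arms with a mean of at least 100 RPMM, miR-145 ranked 69 in likeness to miR-143, and the median r was -0.17. The 5 arms most like miR-143 were miR-192 (r = 0.84), miR-30e* (0.84), miR-28* (0.80), miR-151* (0.69) and miR-101a (0.69). The 5 most like miR-145 were miR-150 (0.82), let-7e (0.81), miR-139 (0.78), miR-16 (0.76) and miR-342 (0.76), all over the same 9 libraries. Both lists were picked as the highest of 121 values from few libraries, and no r was tested. miR-145* had an r of -0.69 with miR-145, rank 119 of 121.

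The 2 strands of the Mir145 hairpin divided by heart. miR-145* made up 9.26% (95% Wilson interval 8.05 to 10.6), 27.1% (25.1 to 29.3) and 33.2% (30.8 to 35.8) of the reads of both strands in the epicardium of hearts 6, 7 and 8. In mid-myocardium it was 7.76% (5.85 to 10.2), 34.1% (31.8 to 36.5) and 19.95% (18.1 to 21.9). In the endocardium it was 4.39% (3.63 to 5.30), 14.9% (13.7 to 16.2) and 26.1% (24.03 to 28.3). Every heart 6 library lay below every library of hearts 7 and 8, and the intervals of those groups did not touch. The log2 ratio of * to mature reads was 2.13 higher in heart 7 and 2.26 higher in heart 8 than in heart 6. It differed between hearts in the limma F test with layer as a covariate (adjusted p = 0.0102), where 2 of 58 hairpins (3.45%) passed and Mir145 had the second smallest p. The call was lost on leaving out any single library of heart 6 (adjusted p = 0.165 without its epicardium, 0.0615 without its mid-myocardium and 0.142 without its endocardium), with a largest difference between hearts of 2.14 to 2.32. The Mir143 hairpin gave an adjusted p of 0.918 in the same test. Between layers the ratio of the Mir145 strands did not pass (endocardium minus epicardium, -0.91 ± 0.88, log2, SE; limma, adjusted p = 0.873), although the * share was lower in endocardium than in epicardium in 3 of 3 hearts (exact two-sided permutation test within hearts, p = 0.25). With heart as a replicate block the same difference had an SE of 0.43 and an interval from -1.85 to 0.032 (limma, unadjusted p = 0.0571, adjusted p = 0.736). Without the block the ratio passed for 0 of 58 hairpins (0%) in each layer contrast, with 3, 3 and 5 at an unadjusted p under 0.05 by limma. Each heart is 1 animal and 1 dissection, and these cannot be told apart.

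**Figure D3:**
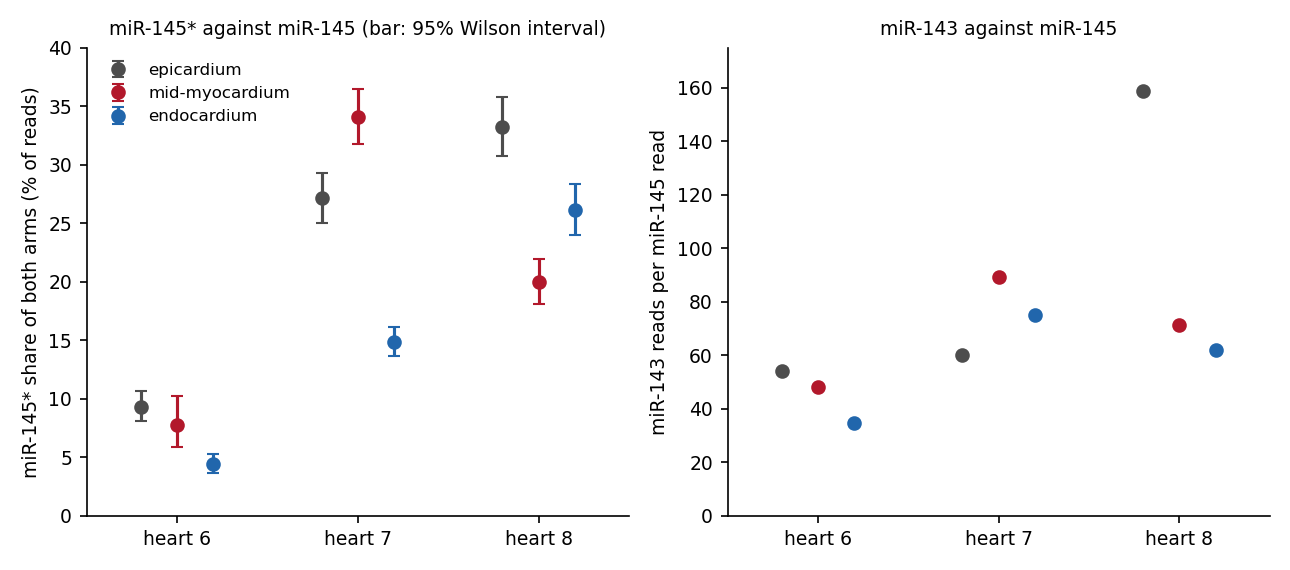
Left, miR-145* as a percentage of the reads of both Mir145 strands in each library, with 95% Wilson intervals. Right, reads of miR-143 per read of miR-145. On the left all 3 heart 6 libraries lie below 10%, and on the right the epicardium of heart 8 stands apart at 159.

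Taken as levels, neither strand of Mir145 passed between hearts on its own. miR-145 was 0.85 lower (log2) in heart 8 than in heart 6 (limma F test, adjusted p = 0.239). miR-145* was 1.66 higher in heart 7 and 1.41 higher in heart 8 than in heart 6 (adjusted p = 0.113), ranking 5 of 228 arms by p. The median over all 228 arms of the largest difference between hearts was 0.40 (log2). In that test 0 of 228 arms (0%) passed and 28 had an unadjusted p under 0.05, whereas edgeR's quasi-likelihood test called 7 arms, miR-145* among them (adjusted p = 0.0297). miR-143 did not pass (adjusted p = 0.898).

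The 3′ end of miR-143 was mostly not the annotated one. The 22-nt mature entry made up 7.71 ± 0.915% of miR-143 reads (SD, n = 9, range 6.46 to 9.23%) and was the fourth most abundant of 969 mature-strand sequences. The most abundant sequence ended 1 nt short of the entry and carried 1 untemplated U, and against the mature entry it reads A22T, counted from 1 at the 5′ end. It held 30.1 ± 2.70% of reads (27.0 to 35.5%). The 21-nt sequence without a tail held 28.3 ± 3.46% (23.7 to 32.7%) and the 20-nt sequence 22.1 ± 4.57% (15.5 to 31.1%). All 9 libraries had the same 4 leading sequences, but not in the same order. The U-tailed form led in 4 libraries (mid-myocardium and endocardium of heart 8 and of heart 6), the 21-nt form in 4 (all of heart 7 and the epicardium of heart 8) and the 20-nt form in 1 (the epicardium of heart 6). A further 2 tailed forms passed 1% of reads, one with 2 U after nt 21 (2.42 ± 0.35%) and one with a U after nt 20, C21T (1.68 ± 0.26%).

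An untemplated tail of U only was found on 35.2 ± 2.89% of miR-143 reads (SD, n = 9). The share in hearts 6, 7 and 8 was 31.6, 35.5 and 33.1% in the epicardium. It was 34.7, 34.7 and 40.8% in mid-myocardium and 38.8, 33.0 and 34.5% in the endocardium. The layers overlapped and none of the 3 differences was resolved (exact two-sided permutation test, p = 0.3 for mid-myocardium against epicardium and 0.5 for each of the other 2, of which 0.1 is the smallest possible). The tails were not spread evenly over the 3′ ends. Reads whose templated part ended at nt 21 were 62.6 ± 4.07% of all miR-143 reads, and those of them with a U tail made up 32.9 ± 3.03% of all miR-143 reads. Reads whose templated part ended at nt 20 were 25.2 ± 4.64%, and those of them with a U tail only 1.88 ± 0.26% of all miR-143 reads. Tails of A only were rare at 0.843 ± 0.146%, but an A after nt 21 is the templated base and cannot be counted as a tail.

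The 5′ end of miR-143 hardly varied. Reads starting at the annotated nt made up 97.7 ± 0.13% (range 97.4 to 97.8%), with 0.803 ± 0.086% starting 1 nt earlier and 0.291 ± 0.022% starting 1 nt later, so the seed was kept in nearly all reads.

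**Figure D4:**
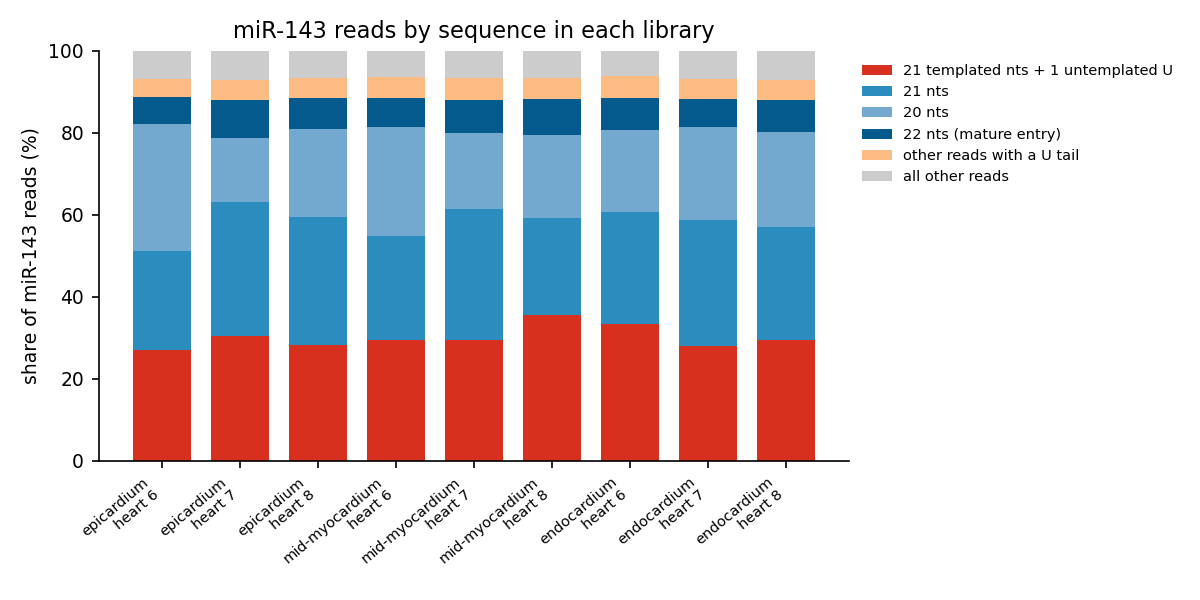
Percentage of miR-143 reads held by the 4 most abundant sequences, by other reads with a U tail and by all remaining reads, for each library. The form with 21 templated nts and 1 untemplated U takes 27.0 to 35.5% of reads and the mature entry 6.46 to 9.23%.

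miR-145 kept its annotated 3′ end in most reads. Its mature entry held 70.1 ± 1.88% of reads (SD, n = 9, range 67.2 to 72.6%), and 97.4 ± 0.49% of reads began at the annotated nt. The 24-nt form, whose last nt is the U that follows the entry in the hairpin, held 8.23 ± 1.28%, and the 22-nt form 5.67 ± 0.97%. U tails covered 1.34 ± 0.39% and A tails 5.60 ± 1.34% of miR-145 reads, the latter led by the form T23A. A comparison with the mature entry alone, without the hairpin, would count the 24-nt form as tailed and give a U tail share of 9.54%. The mature entry was less frequent in mid-myocardium (68.6, 67.7 and 70.3% in hearts 6, 7 and 8) than in endocardium (71.6, 70.6 and 71.1%), in 3 of 3 hearts and without overlap. A tails were more frequent there (5.23, 7.88 and 6.53% against 4.14, 4.33 and 5.19%). Both differences reached the smallest p that 3 against 3 allows (exact two-sided permutation test, p = 0.1, and 0.25 within hearts, also the smallest possible), and of the 24 share tests none was below 0.8 after Benjamini-Hochberg adjustment. In the limma test of the exact mature share over 104 arms, neither mature strand passed between layers (for miR-145, mid-myocardium minus endocardium, -0.16 ± 0.12, log2 odds, SE; adjusted p = 0.891). There 1 arm (0.962%) passed for endocardium against epicardium, and 0 passed by limma for mid-myocardium against epicardium and against endocardium, with 3 and 5 at an unadjusted p under 0.05.

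Among 87 rat arms with at least 1000 reads of which at least 80% could be placed on their RefSeq hairpin, miR-143 ranked 6 in U tails (34.8% of pooled reads, against a median of 3.11% and a highest value of 55.2%) and 80 in A tails (0.829%, median 5.67%). miR-145 ranked 63 in U tails, 48 in A tails and 7 in the share of the exact mature sequence (70.4%, median 30.4%), in which miR-143 ranked 68. These ranks describe pooled reads and carry no test. In each arm an added base equal to the next hairpin base is not counted, which for miR-145 holds for U after nts 22 and 23.

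**Figure D5:**
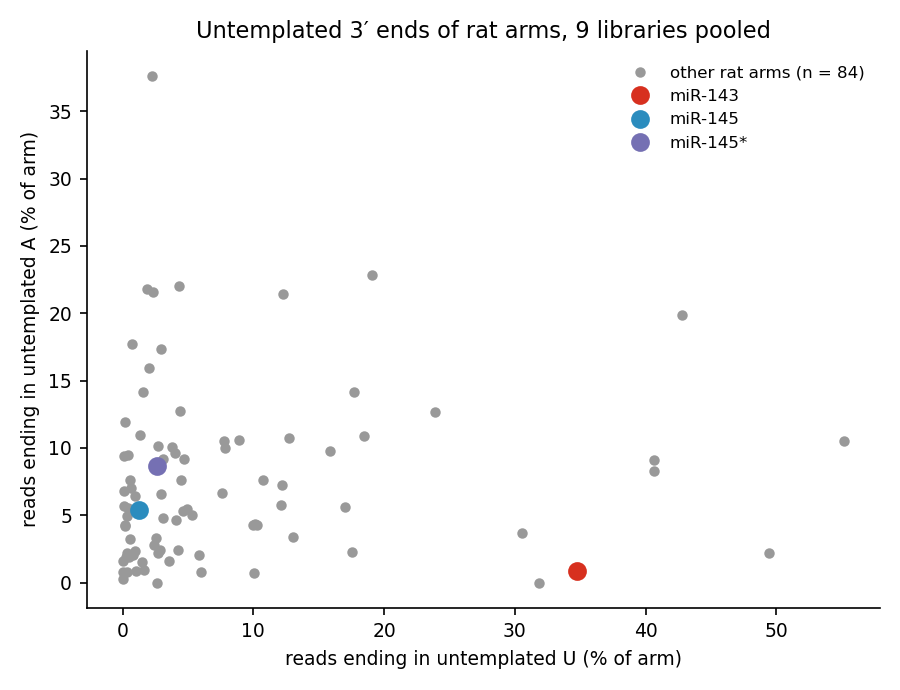
Percentage of reads with an untemplated tail of U only (x axis) and of A only (y axis) for 87 rat arms, 9 libraries pooled. miR-143 lies far right and low (34.8% U, 0.829% A), miR-145 at 1.26% U and 5.36% A, and miR-145* at 2.64% U and 8.63% A. An added base equal to the next hairpin base is not counted, such as A after nt 21 of miR-143 or U after nts 22 and 23 of miR-145.

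The miRBase entry of miR-145* was almost absent. Of 2990 reads, 4 were the exact entry and 2669 began 2 nts further in, which is 90.4 ± 4.13% of reads per library (SD, n = 9, range 87.1 to 100%). Another 7.50 ± 3.41% began 1 nt further in. Starting 2 nts in moves the seed from GATTCCT to TTCCTGG, and no rat mature entry of the 724 in RefSeq has the latter. The most abundant form, 21 nts long, held 47.1 ± 6.44% of reads and the same start with 1 nt less 13.2 ± 3.63%. The share starting 2 nts in was 88.4, 87.3 and 87.1% in the epicardium of hearts 6, 7 and 8 and 92.2, 92.6 and 88.5% in the endocardium, higher in 3 of 3 hearts (exact two-sided permutation test, p = 0.1, and 0.25 within hearts, each the smallest possible). Mid-myocardium gave 100, 90.3 and 87.7%, the first from 45 reads.

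Tailed reads took a larger share of miR-145* in heart 6, at 35.9, 37.8 and 40.2% in epicardium, mid-myocardium and endocardium, against 15.4 to 22.3% in hearts 7 and 8. A tails covered 15.5, 17.8 and 13.7% of miR-145* reads in the same libraries of heart 6, and 6.25 to 8.79% in hearts 7 and 8. C tails covered 14.4, 8.89 and 14.7% in heart 6 and 2.40 to 5.36% in hearts 7 and 8. Neither range overlapped, but heart 6 gave only 45 to 181 reads of the strand per library. The C-tailed sequence printed above measured 25.5, 14.1 and 19.7 RPMM in heart 6 and 11.8 to 25.8 RPMM in the other hearts, so its level was not lower in heart 6, whereas the untailed 21-nt form measured 72.4, 81.0 and 50.6 RPMM in heart 6 and 159.6 to 370.4 RPMM in hearts 7 and 8. The form with 1 A at the same place measured 9.58, 7.04 and 8.43 RPMM in heart 6 and 11.2 to 30.3 RPMM in the other hearts, so it was lower in heart 6 and its share of 4.97, 4.44 and 5.88% overlapped that of the other hearts (3.38 to 5.53%). The form with 2 A held 5.52, 6.67 and 4.90% in heart 6 and 0.670 to 3.16% in the other hearts. C tails over 84 other arms were not raised in heart 6 (0.440 to 0.612% of pooled reads, against 0.486 to 0.768% in hearts 7 and 8).

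miR-143* reads, with the caution that all rest on 127 reads, mostly ran past the 21-nt entry. The form 2 nts longer held 39 reads, the same form with an untemplated U 30 reads and the entry 10 reads.

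Single sequences were compared where they reached a mean of 100 RPMM in at least 1 layer. This kept 24 sequences of the cluster out of 577, namely 20 of miR-143, 3 of miR-145 and 1 of miR-145*. Between layers 0 of 577 sequences (0%) passed limma in any contrast, with 13, 11 and 17 at an unadjusted p under 0.05 for endocardium against epicardium, mid-myocardium against epicardium and mid-myocardium against endocardium. edgeR also called 0, with 14, 12 and 16. The 3 miR-145 sequences were 0.57 to 0.69 higher (log2) in endocardium than in epicardium, and the 20 miR-143 sequences ranged from -0.27 to 0.38, with 12 of 20 above 0. The U-tailed leader of miR-143 differed by 0.075 ± 0.27 (log2, SE), its untailed 21-nt form by -0.041 ± 0.36 and its mature entry by -0.066 ± 0.29. Each SE belongs to the layer difference of that form alone. It does not measure the spread between tailed and untailed forms of the same libraries.

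Between hearts 34 of 577 sequences (5.89%) passed the limma F test, 2 of them from the cluster, a share of 8.33% of the 24. One was the 21-nt form of miR-145* that starts 2 nts in, 1.99 higher (log2) in heart 7 and 1.64 higher in heart 8 than in heart 6 (adjusted p = 0.0228). The other, singled out after its values were seen, was miR-143 of 21 nts with 1 untemplated G. It measured 191, 317 and 419 RPMM in the epicardium, mid-myocardium and endocardium of heart 7 and 91.6 to 136 RPMM in hearts 6 and 8, 1.58 higher in heart 7 than in heart 6 (adjusted p = 0.0345). G tails were more frequent in heart 7 on miR-143 as a whole (0.404 to 0.688% of reads, against 0.188 to 0.296% in hearts 6 and 8) and on miR-145 (1.15 to 1.92% against 0.630 to 0.976%). The same held for the 84 other arms pooled, with 0.545 to 1.01% in heart 7 and 0.262 to 0.434% in hearts 6 and 8, so the higher share of G was also seen outside the cluster. miR-145* did not follow, with G tails on 2.21, 4.44 and 3.92% of its reads in the epicardium, mid-myocardium and endocardium of heart 6 and on 1.10, 0 and 1.48% in heart 7, from 0 to 7 reads per library. Both calls were lost on leaving out some of the single libraries. The adjusted p reached 0.144 for the miR-145* form without the epicardium of heart 6 and 0.192 for the G-tailed form without the mid-myocardium of heart 7.

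Marker miRNAs of the cell types a wall sample can hold were measured beside the cluster. The 6 cardiomyocyte miRNAs (miR-1, miR-133a, miR-133b, miR-208, miR-208b and miR-499) summed to 53981 to 106902 RPMM in the epicardium, 105585 to 142202 in mid-myocardium and 61556 to 103423 in the endocardium. The epicardium of heart 8, which had the highest miR-143, had the lowest cardiomyocyte sum. That sum was mostly miR-133a, with a mean of 89555 RPMM against 4156 RPMM for miR-1, the next highest. In endocardium minus epicardium miR-208b differed by 0.59 ± 0.29 (log2, SE), miR-208 by -0.32, miR-499 by -0.21 and miR-1 by -0.13. miR-133a and miR-133b differed by 8.1e-05 and 0.0054. The 3 endothelial miRNAs (miR-126, miR-221 and miR-222) summed to 4295 to 8483, 6387 to 6606 and 3431 to 5840 RPMM in epicardium, mid-myocardium and endocardium. Most of it was miR-126, with a mean of 5620 RPMM against 128 RPMM for miR-221 and 73.7 RPMM for miR-222. The 3 fibroblast miRNAs (miR-199a, miR-214 and miR-21) summed to 4420 to 4741, 5238 to 6197 and 4177 to 5404 RPMM. The 4 leukocyte miRNAs (miR-142, miR-150, miR-223 and miR-146a) summed to 6819 to 13394, 8790 to 11613 and 9457 to 14093 RPMM. The sum was mostly miR-150, with a mean of 9113 RPMM against 535 RPMM for miR-142, 928 RPMM for miR-146a and 44.8 RPMM for miR-223. miR-150, the arm most like miR-145 over the libraries, differed by 0.20 (log2) in endocardium minus epicardium and miR-223 by 0.27, whereas miR-142 differed by -0.34 and miR-146a by -0.16. Of the 3 red cell miRNAs, miR-451 and miR-144 summed to 426 to 1025, 651 to 1013 and 561 to 827 RPMM. The third, miR-486, had no reads under a rat entry and is not in this sum. It was not absent from the tissue, since the paper found it under a human entry and above miR-143 in mid-myocardium. The paper also cites an earlier report that miR-486 is enriched in heart and skeletal muscle. None of the markers with rat reads passed limma between layers in any contrast, and miR-486 was not in that test. By quantitative PCR in additional hearts, the paper reports significant gradients of miR-21 and miR-486, both higher in endocardium than in epicardium. The part of the listed cell types in the differences of the cluster above was not tested.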

How the data were processed

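Small RNA of 9 samples (3 layers of 3 rat hearts, RNA integrity number of at least 8) was sequenced from TruSeq libraries. Per the labels and methods, the authors trimmed the reads and annotated them in CLC Genomics Workbench 4.0 against miRBase 18, with up to 2 mismatches among the listed matches. They deposited each annotated sequence as RPM on the annotated reads of its library (RPMM), a grouped table whose signal is on 2 totals (used only as an alternative), and the count of reads of each unannotated sequence. Of the RPM values 100% were whole reads within 0.01 read, so reads were recovered. The authors' fold changes were not used. The members and lists were chosen with earlier results of these data known.

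Arms were sums of all match types per rat name, and those reaching 10 reads in any library were kept. limma 3.58.1 was run on log2(RPMM + 1) over all 9 libraries with layer as the term, adjusting over all arms by Benjamini-Hochberg, with a threshold of 0.05. For hearts, limma's F test took layer as a covariate. Exact mature shares (at least 50 reads in every library) and strand ratios were tested as log2 ratios with 0.5 read added. Reads were placed on RefSeq hairpins by 15 or more leading nts with a tail of up to 3 nts, and all 4 deposited mature sequences equalled their RefSeq entries. Placement and fits were tested on simulated data, the fits with 4-fold changes only, so smaller differences were not covered. Baggerley's test made no call there after adjustment and so is void as a check. Single shares were compared by exact permutation tests and carry 95% Wilson intervals.

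Named were the members, their sequences with at least 1% of the reads of an arm, the 3 most abundant of each * strand, the 5 arms most like either member, and the marker lists. Equal heart numbers mark the same animal. Because all 3 layers were cut from each heart, the heart served as a block in an alternative. Deviations from layer means correlated at 0.15 on average between libraries of a heart (-0.28 to 0.39, 9 pairs) and at -0.072 between hearts. These 2 averages are not independent, since the deviations of a layer cancel over its 3 hearts. TMM normalization, which shifted libraries by -0.17 to 0.17 (log2), edgeR 4.0.16 and DESeq2 1.42.0 were alternatives. R 4.3.3 was used with Python 3.11.15 (matplotlib 3.10.9, numpy 2.4.6, pandas 2.3.3, scipy 1.17.1).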

Additional observations from a re-analysis of the deposited data

Results flagged for a closer look

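Reads of the cluster also lay outside the rat entries. Sequences annotated to entries of other species named miR-143 numbered 46 with 270 reads over the 9 libraries, 4 to 80 per library. Those named miR-145 numbered 48 with 110 reads, 3 to 26 per library. Among the unannotated sequences, which are listed from 10 reads upwards, 2 with 157 reads (7 to 26 per library) matched the Mir143 hairpin up to the last nt and 0 matched the Mir145 hairpin. There were no control samples, so these were set against the 3 reads that a count of 0 allows. They equal 0.0308% and 0.692% of the rat reads of miR-143 and miR-145 for the other species, and 0.0179% for the unannotated sequences.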

How the results depend on the processing

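The 0 arms called between layers stayed 0 under the other tests, totals, pseudocounts, filters and groupings. Leaving out single libraries gave 0 to 1 arms for endocardium against epicardium and for mid-myocardium against endocardium (1 without the endocardium of heart 7), and 0 to 1 strand ratios for endocardium against epicardium, and no member was among these calls. With heart number as a replicate block the 1 exact mature share called between endocardium and epicardium fell to 0, as it did with 0.1 read added, and left-out libraries gave 0 to 1. The block changed no other call, giving 0 arms, 0 sequences and 0 strand ratios between layers.

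Between hearts, called arms rose from 0 to 5 with a pseudocount of 10 and to 7 with edgeR, and ranged from 0 to 3 over left-out libraries (3 without the mid-myocardium of heart 8). Called sequences rose from 34 to 52 with a mean of at least 10 RPMM, where both member calls were lost (adjusted p = 0.068 by limma for the miR-145* form and 0.130 for the G-tailed miR-143 form). They ranged from 0 (without the epicardium of heart 6) to 40 over left-out libraries. Exact mature shares ranged from 0 to 2 and strand ratios from 0 to 2. These left-out libraries of sequences, shares and strand ratios were chosen after seeing the data. miR-145* passed between hearts with a pseudocount of 10 (1.61, log2, limma adjusted p = 0.0254) and by edgeR (1.72). With sequences of at least 10 reads only, the miR-145 exact share was 72.5% and its annotated start 99.1%. With the mature entry as reference the miR-145 U tail share was 9.54% and the miR-145* A tail share 0%. The 0% says nothing about A tails, because that comparison begins at the first nt of the entry and most miR-145* reads start further in.

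Member differences between layers that changed sign, none of which passed the test, are given in log2. miR-143 in endocardium minus epicardium was 0.060 on the total of rat reads, and miR-145 in mid-myocardium minus epicardium was -0.024 by edgeR. Over left-out libraries, endocardium minus epicardium ranged from -0.17 to 0.20 for miR-143, -0.37 to 0.50 for miR-143* and -0.84 to 0.16 for miR-145*. Mid-myocardium minus epicardium ranged from -0.34 to 0.022 for miR-143, -0.22 to 0.26 for miR-145 and -0.76 to 0.32 for miR-145*, and mid-myocardium minus endocardium from -0.40 to 0.68 for miR-145*. The exact share ranged from -0.20 to 0.080 for miR-143 and -0.065 to 0.12 for miR-145 in endocardium minus epicardium, and from -0.077 to 0.20 for miR-143 in mid-myocardium minus epicardium. The strand ratio ranged from -0.50 to 0.59 for Mir143 in endocardium minus epicardium, and for Mir145 from -0.96 to 0.43 in mid-myocardium minus epicardium and from -0.16 to 1.34 in mid-myocardium minus endocardium. The cause of these changes was not tested. Levels under 3 reads, 2.10 to 10.6 RPMM, cannot be told from 0.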
